A study of Sus scrofa with 2 samples.

Results

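The genes described here encode the enzymes of glycolysis, the transporters that carry glucose and lactate across the plasma membrane, the enzymes that pass pyruvate to mitochondria, and HIF1A. They were followed in single-cell RNA sequencing data from pig thymus. Of 35 listed symbols, 31 occur as a symbol in the deposited gene list, which holds 21301 genes, and these 31 are the members. The glucose transporters SLC2A1 and SLC2A3 have no row under their symbols and were not analysed here. ALDOA and PKM have rows that carry only a gene identifier (ENSSSCG00000032556 and ENSSSCG00000001930), named here through a table of gene names. They are given beside the members and counted in none of the totals. Which listed symbols became members depended on the deposited gene list and not on a measured value. The list of symbols itself was chosen with earlier results of these data known.

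Glycolysis splits glucose into pyruvate in the cytosol. Hexokinase traps glucose as its phosphate, phosphofructokinase makes the committed step, and the enzymes from aldolase to pyruvate kinase recover ATP and NADH. Lactate dehydrogenase regenerates NAD+ by turning pyruvate into lactate, which leaves the cell through monocarboxylate transporters. Pyruvate dehydrogenase instead sends pyruvate into the mitochondrion, and pyruvate dehydrogenase kinases switch that enzyme off. Several steps have isoforms with different kinetics and tissue distribution. In mouse and human T cells, glucose uptake and glycolysis are known to increase on activation and during thymocyte proliferation, and the transcription factor HIF1A induces many of these genes.

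The data consist of 1 library of iNKT (invariant natural killer T) thymocytes, a lineage whose nearly fixed T cell receptor recognises lipids on CD1d, and 1 library of total thymocytes. Both pooled cells from the same 2 untreated, mixed-breed pigs aged 22 weeks, so neither kind has a replicate library and no value can be traced to 1 animal. The iNKT cells had been taken from these thymi with magnetic beads by positive selection, live cells of both kinds were sorted, and selection cannot be told apart from cell kind. After filtering, 11273 iNKT cells with 53277055 UMIs (median 4210 per cell) and 8026 total thymocytes with 28567412 UMIs (median 2414.5) remained. A UMI is a molecular tag that counts 1 captured transcript, and levels are UMIs summed over the cells of a class and scaled to its total as CPM. The kit reads the 3′ end of each transcript, so levels were not divided by length. The libraries shared 41 cell barcodes. All intervals are exact at 95% and cover counting error only.

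Each library was clustered on its own without the members, and clusters were grouped into 10 classes. Marker genes named all of them but the non-dividing iNKT class. That class took every iNKT-library cluster not named dividing, S-phase-like, B cell or cytotoxic, and most of its cells lay in clusters that met no name. The iNKT library gave 129 dividing cells with transcripts of the G2 and M phases, 1037 S-phase-like cells and 9953 non-dividing cells. ZBTB16, the PLZF factor that marks iNKT cells, stood at 246, 251 and 222 CPM in these classes, and at most 1.79 CPM in any class of total thymocytes. Total thymocytes gave 538 gamma-delta-like, 1000 mature-like, 1158 post-selection-like, 596 dividing-like, 383 S-phase-like, 1067 pre-TCR-like and 2685 double-positive-like cells. Of the markers of mature cells, only CCR7 was among the 10 leading genes of the mature-like cluster, beside the cytotoxic gene GZMH and the interferon-induced ISG15 and IFITM3. In the S-phase-like thymocytes 2 cells held 17474 of 17485 UMIs of haemoglobin beta (HBB), and HBB, HBM and AHSP led that cluster. Clusters with genes of B cells, cytotoxic cells or regulatory T cells and 2 unnamed clusters lie outside the classes, together 154 iNKT cells and 599 total thymocytes. The 7 gamma-delta markers with a row summed to 2152 CPM in gamma-delta-like cells, and to at most 110 CPM in the other 9 classes. The 11 double-positive markers summed to 8034 CPM in double-positive-like cells, against 1061 CPM in mature-like cells. Median depth differed widely, at 9058 UMIs in dividing iNKT cells, 4107 in non-dividing iNKT cells and 1289 in double-positive-like cells.

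Summed over the 31 members, S-phase-like iNKT cells had the highest level of the 10 classes, 8006 CPM (95% interval 7935 to 8077). Dividing iNKT cells had 6138 CPM and non-dividing iNKT cells 5210 CPM. Among total thymocytes the sum was 5884 CPM in S-phase-like cells, 5586 CPM in dividing-like cells, 4443 CPM in gamma-delta-like cells, 4104 CPM in post-selection-like cells, 3547 CPM in mature-like cells, 2699 CPM in pre-TCR-like cells and 2861 CPM in double-positive-like cells. With each cell thinned to 1500 UMIs the sums were 5933 CPM in dividing iNKT cells, 5079 CPM in non-dividing iNKT cells and 2678 CPM in double-positive-like cells, so the order of these 3 classes was the same. The S-phase-like iNKT class shrank to 406 cells with 15 principal components, at 7493 CPM, and was not found without the highest doublet scores, where dividing iNKT cells numbered 328. GAPDH alone made up 41.8% to 62.5% of the members' UMIs in the 10 classes. Per cell, the members contributed 57.7 UMIs in dividing iNKT cells, 23.8 in non-dividing iNKT cells, 50.2 in dividing-like thymocytes, 11.9 in mature-like thymocytes and 4.25 in double-positive-like thymocytes. Of the 27 members with at least 100 UMIs over the classes, 11 had their highest level in S-phase-like iNKT cells and 9 their lowest in double-positive-like cells. Such extremes were not counted over all genes, so these counts do not set the members apart from other genes. PGK1, the first ATP-yielding kinase of the pathway, had neither of these extremes. It was highest in pre-TCR-like cells (162 CPM) and double-positive-like cells (147 CPM), and lowest in mature-like cells (83.7 CPM) and non-dividing iNKT cells (91.6 CPM).

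**Figure D1:**
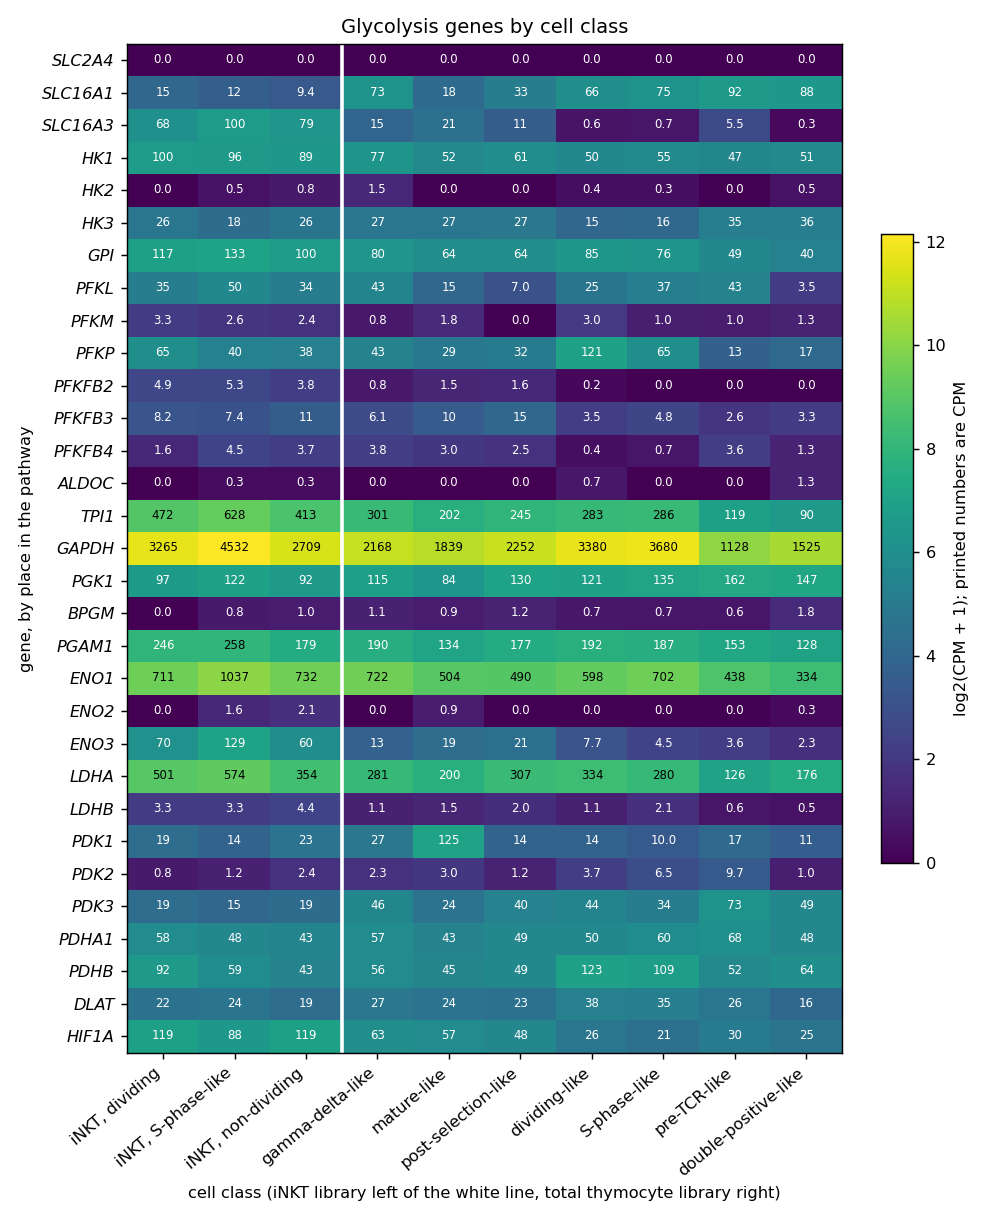
Level of each of the 31 members (rows, in pathway order) in the 10 cell classes (columns), with colour on the log2(CPM + 1) scale and the CPM printed in each cell. GAPDH and ENO1 are the brightest rows, reaching 4532 and 1037 CPM in S-phase-like iNKT cells, and PDK1 stands out in mature-like cells at 124.8 CPM.

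Transport showed an exchange of isoforms. SLC16A1 encodes MCT1, which carries lactate and pyruvate in either direction, and SLC16A3 encodes MCT4, known as a lactate exporter of glycolytic cells. SLC16A3 stood at 68.5 CPM in dividing, 100.1 CPM in S-phase-like and 79.1 CPM in non-dividing iNKT cells. Among total thymocytes it stood at 14.8 CPM in gamma-delta-like, 21.1 CPM in mature-like, 11.1 CPM in post-selection-like and 5.52 CPM in pre-TCR-like cells. It had 3 UMIs in dividing-like cells, 2 in S-phase-like cells and 1 in double-positive-like cells. The 3 iNKT classes lay above all 7 classes of total thymocytes, with intervals that did not overlap. Clusters of the iNKT library outside the classes also held SLC16A3. It was at 42.3 CPM (26.2 to 64.7) from 21 UMIs in the B cell cluster. In the cytotoxic cluster it was at 63.9 CPM (25.7 to 132) from 7 UMIs. The parts of free RNA, doublets and library in these levels were not tested.

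SLC16A1 ran the other way. It stood at 14.8 CPM in dividing, 11.7 CPM in S-phase-like and 9.36 CPM in non-dividing iNKT cells. Its levels were 73.2 CPM in gamma-delta-like, 18.2 CPM in mature-like, 33.2 CPM in post-selection-like, 66.3 CPM in dividing-like, 75.5 CPM in S-phase-like, 92.0 CPM in pre-TCR-like and 88.1 CPM in double-positive-like cells. Mature-like cells lay close to the iNKT classes in SLC16A1, and gamma-delta-like cells lay close to immature thymocytes.

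Expressed as a share of the UMIs of both transporters, SLC16A3 made up 82.2% (73.3 to 89.1) in dividing iNKT cells and 89.4% (88.4 to 90.4) in non-dividing iNKT cells. It made up 16.8% (12.2 to 22.3) in gamma-delta-like cells, 53.8% (44.9 to 62.5) in mature-like cells, 25% (17.2 to 34.3) in post-selection-like cells, 0.838% (0.173 to 2.43) in dividing-like cells and 0.284% (0.00719 to 1.57) in double-positive-like cells. Dividing-like thymocytes thus had hardly any SLC16A3, and dividing iNKT cells had it as their main isoform. SLC16A3 was 3.74-fold higher in non-dividing iNKT cells than in mature-like cells (2.96 to 4.80) and 5.35-fold higher than in gamma-delta-like cells (3.90 to 7.53). SLC16A1 was 7.82-fold lower in non-dividing iNKT cells than in gamma-delta-like cells (6.56 to 9.29), and its ratio to mature-like cells was 0.515 (0.393 to 0.686).

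At 1500 UMIs per cell, a UMI of SLC16A3 was found in 10.1% of 9829 non-dividing iNKT cells (9.50 to 10.7), 1.68% of 535 gamma-delta-like cells (0.772 to 3.17) and 3.76% of 984 mature-like cells (2.66 to 5.15). It was found in 0 of 980 double-positive-like cells, which allows a share of up to 0.306%. Without thinning the shares were 27.3%, 6.13%, 6.5% and 0.0372% in these 4 classes. Of the other classes of the same library, dividing-like cells had a share of 0.169% and S-phase-like cells 0 of 381. The part of free RNA in these shares was not tested, since ZBTB16 and CD8B are each scarce in 1 of the libraries. SLC2A4, the insulin-responsive glucose transporter, had 0 UMIs in both libraries, which allows up to 0.0563 CPM among iNKT cells and 0.105 CPM among total thymocytes.

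**Figure D2:**
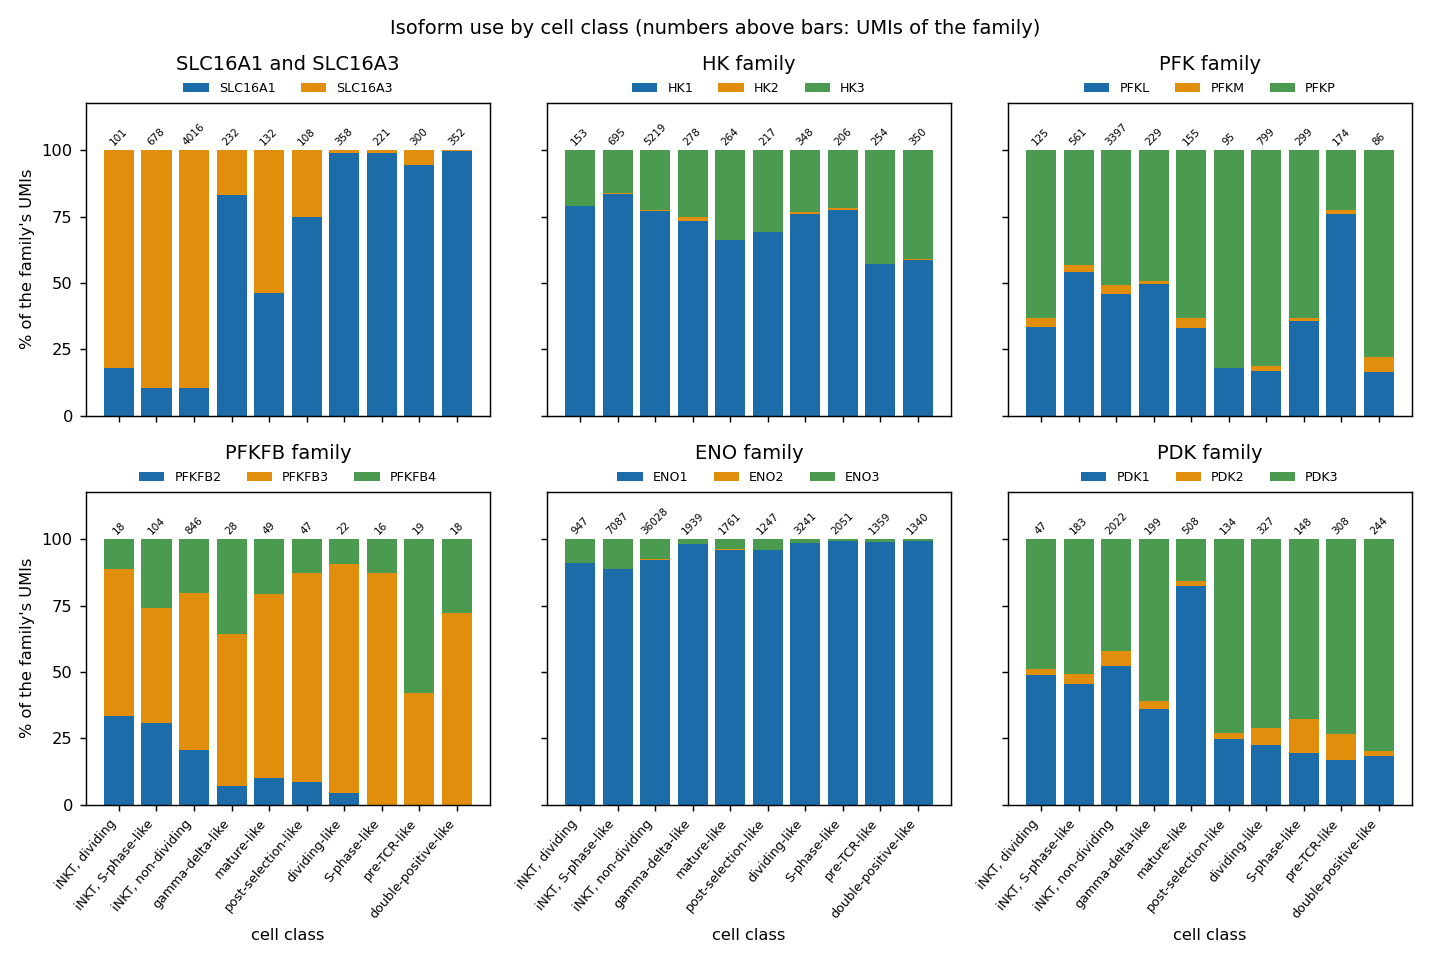
Share of each isoform in the UMIs of its family (y axis, %) in the 10 cell classes (x axis), with the number of UMIs of the family above each bar. SLC16A3 fills 89.4% of its bar in non-dividing iNKT cells and 0.284% in double-positive-like cells, and PDK1 fills 82.5% of the PDK bar in mature-like cells.

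HK1, the hexokinase bound to the outer mitochondrial membrane, was the main hexokinase in every class, with 57.1% to 83.5% of the family's UMIs. It stood at 99.8 CPM in dividing iNKT cells, 95.6 CPM in S-phase-like iNKT cells, 88.5 CPM in non-dividing iNKT cells, 77.4 CPM in gamma-delta-like cells, and between 47.1 and 61.5 CPM in the other 6 classes. HK3, best known from myeloid cells, supplied 16.1% to 42.9% and was highest in double-positive-like cells at 35.9 CPM (30.2 to 42.3). Summed over the 11 myeloid and dendritic markers with a row, of which 3 to 8 were detected, double-positive-like cells had 25.1 CPM and the 10 classes ranged from 5.42 CPM in dividing-like to 55.8 CPM in gamma-delta-like cells. In double-positive-like cells 7 of these markers were detected, while LYZ, S100A12, FLT3 and CD163 were at 0. S100A8, among the detected ones, was at or below 0.41 CPM in all 10 classes. The part of myeloid and dendritic cells in the HK3 level was not tested. HK2, the inducible isoform of activated T cells in mice and humans, had 42 UMIs among all iNKT cells and 9 among all total thymocytes. GPI, which converts glucose 6-phosphate to fructose 6-phosphate, ranged from 39.6 CPM in double-positive-like cells to 133 CPM in S-phase-like iNKT cells.

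The isoform shares of phosphofructokinase differed with stage. PFKP, the platelet-type subunit, stood at 65.2 CPM in dividing and 38.0 CPM in non-dividing iNKT cells. Among total thymocytes it reached 121 CPM (112 to 131) in dividing-like cells and 65.1 CPM in S-phase-like cells, against 12.7 CPM in pre-TCR-like and 16.8 CPM in double-positive-like cells. PFKL, the liver-type subunit, stood at 25 CPM in dividing-like cells and 42.9 CPM in pre-TCR-like cells, against 3.51 CPM (14 UMIs) in double-positive-like cells. PFKL made up 75.9% (68.8 to 82.0) of the family in pre-TCR-like cells and 16.3% (9.20 to 25.8) in double-positive-like cells, while the PFKP share was 22.4% in pre-TCR-like cells and 77.9% in double-positive-like cells. In non-dividing iNKT cells and gamma-delta-like cells both subunits had similar shares, with PFKL at 45.9% and 49.8%. PFKM, the muscle-type subunit, was at or below 3.30 CPM in the 10 classes. The highest PFKL level of any cluster of total thymocytes, 96.0 CPM (82.6 to 111), was in an unnamed cluster of 215 cells led by S100A12 and S100A8.

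The PFKFB enzymes make and remove fructose 2,6-bisphosphate, the strongest known activator of phosphofructokinase. PFKFB3 was the most abundant of them in 9 of the 10 classes, at 11.1 CPM in non-dividing iNKT cells, 10.1 CPM in mature-like cells, 15.2 CPM in post-selection-like cells and 3.26 CPM in double-positive-like cells. PFKFB4 exceeded it in pre-TCR-like cells, by 11 UMIs to 8. PFKFB2 had 211 UMIs among all iNKT cells and 15 among all total thymocytes.

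In the later steps of the pathway 1 isoform dominated each step. GAPDH, which yields the NADH of glycolysis, stood at 3265 CPM in dividing, 4532 CPM in S-phase-like and 2709 CPM in non-dividing iNKT cells, 1839 CPM in mature-like cells, 3380 CPM in dividing-like cells and 1525 CPM in double-positive-like cells. TPI1, which interconverts the triose phosphates, was at 472, 628 and 413 CPM in those 3 iNKT classes, at 301 CPM in gamma-delta-like cells, 202 CPM in mature-like cells, 283 CPM in dividing-like cells and 89.6 CPM in double-positive-like cells. ENO1, the ubiquitous enolase, ranged from 334 CPM in double-positive-like cells to 1037 CPM in S-phase-like iNKT cells and made up at least 88.8% of enolase UMIs in every class. PGAM1 ranged from 128 to 258 CPM between the same classes. These genes have near-identical copies in mammalian genomes. How reads shared with a copy were counted is not given in the sources used here, so their levels relative to one another are uncertain. Among the genes named by identifier, PKM, a pyruvate kinase gene, ran from 127 CPM in double-positive-like to 677 CPM in S-phase-like iNKT cells, and ALDOA from 4.87 to 21.3 CPM. ALDOC, BPGM and ENO2 had 14, 49 and 104 UMIs among all iNKT cells and 10, 28 and 5 among all total thymocytes.

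ENO3, the enolase best known from muscle, was a minor isoform that separated iNKT cells from thymocytes. It stood at 70.1 CPM in dividing, 129 CPM in S-phase-like and 60.0 CPM in non-dividing iNKT cells. It stood at 13.3 CPM in gamma-delta-like, 19.4 CPM in mature-like, 20.9 CPM in post-selection-like, 7.66 CPM in dividing-like and 2.26 CPM in double-positive-like cells. Its level in non-dividing iNKT cells was 3.1-fold that in mature-like cells (2.43 to 4.03) and 4.52-fold that in gamma-delta-like cells (3.24 to 6.51). With 15 principal components, where the gamma-delta-like class held 254 cells, the second of these ratios was 8.20. A cluster of 67 total thymocytes led by XCL1, NR4A3, CCL4 and TNFRSF9 and outside the classes reached 128 CPM of ENO3 (89.8 to 177), from 36 UMIs.

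LDHA, the lactate dehydrogenase subunit that favours pyruvate reduction, supplied nearly all lactate dehydrogenase UMIs everywhere. Here and in the other families these are shares of counted UMIs. How completely the 3′ end of each gene is annotated was not tested, so shares of transcripts may differ. Its share was 99.3% (98.3 to 99.8) in dividing iNKT cells, 98.8% (98.6 to 98.9) in non-dividing iNKT cells, 99.6% (98.8 to 99.9) in gamma-delta-like cells, 99.3% (98.3 to 99.8) in mature-like cells, 99.7% (99.3 to 99.9) in dividing-like cells and 99.7% (99.0 to 100) in double-positive-like cells. LDHB was at or below 4.36 CPM in the 10 classes. LDHA itself stood at 501 CPM in dividing, 574 CPM in S-phase-like and 354 CPM in non-dividing iNKT cells, against 200 CPM in mature-like, 334 CPM in dividing-like, 126 CPM in pre-TCR-like and 176 CPM in double-positive-like cells.

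Among the kinases that inactivate pyruvate dehydrogenase, PDK1 and PDK3 ran in opposite directions. PDK1 stood at 125 CPM (113 to 137) in mature-like cells against 11.3 CPM (8.24 to 15.1) in double-positive-like cells, an 11.1-fold higher level (8.11 to 15.4). PDK3 stood at 23.5 CPM in mature-like cells against 48.9 CPM in double-positive-like cells, 2.08-fold lower (1.59 to 2.74). PDK1 thus made up 82.5% (78.9 to 85.7) of PDK UMIs in mature-like cells and 18.4% (13.8 to 23.9) in double-positive-like cells. Post-selection-like cells still had 13.5 CPM of PDK1 and a share of 24.6%. iNKT cells and gamma-delta-like cells did not carry the high PDK1 level: non-dividing iNKT cells had 23.4 CPM and gamma-delta-like cells 27.3 CPM. PDK1 was 5.34-fold lower in non-dividing iNKT cells than in mature-like cells (4.76 to 5.99), and 4.57-fold lower in gamma-delta-like cells than in mature-like cells (3.55 to 5.95). At 1500 UMIs per cell, a PDK1 UMI was found in 3.30% of non-dividing iNKT cells (2.95 to 3.67), 3.55% of gamma-delta-like cells (2.15 to 5.49), 15.4% of mature-like cells (13.2 to 17.9) and 1.33% of double-positive-like cells (0.708 to 2.26). The unthinned shares were 9.68%, 11.2%, 25.6% and 1.64% in these 4 classes.

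Within the mature-like class PDK1 differed by co-receptor. The 437 cells with a UMI of CD8A or CD8B and none of CD4 had 191 CPM (169 to 215), the 143 cells with a CD4 UMI and none of CD8 had 48.9 CPM (31.6 to 72.2), the 81 cells with both had 107 CPM, and the 339 cells with neither had 75.5 CPM. SLC16A3 lay in the opposite order, at 9.56 CPM (5.23 to 16.0) in the first and 33.2 CPM (19.4 to 53.2) in the second of these sets, so the intervals of both genes were apart. HIF1A, at 41.7 CPM (31.9 to 53.5) and 80.2 CPM (57.5 to 109), had intervals apart as well. So had LDHA, at 154 CPM (134 to 175) and 237 CPM (196 to 283). The intervals of PDK3, SLC16A1, TPI1 and GAPDH overlapped between these sets. Ratios against the mature-like class average over this mix of cells. The split rests on detected UMIs, so cells counted as lacking a co-receptor may carry it. Levels of PDK1 close to that of mature-like cells also occurred in the cytotoxic clusters outside the classes, at 128 CPM from 14 UMIs in the iNKT library and 123 CPM from 39 UMIs in total thymocytes. In non-dividing iNKT cells PDK1 made up 52.4% and PDK3 42.2% of PDK UMIs. PDK3 was highest in pre-TCR-like cells at 73.4 CPM, and PDK2 never passed 9.75 CPM in a class. Of the pyruvate dehydrogenase subunits, PDHB (E1 beta) stood at 91.5 CPM in dividing and 42.6 CPM in non-dividing iNKT cells, and at 123 CPM in dividing-like and 64.2 CPM in double-positive-like cells. PDHA1 (E1 alpha) stayed between 42.6 and 68.2 CPM, and DLAT (E2) between 16.1 and 38.3 CPM.

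HIF1A, the oxygen-regulated transcription factor, stood at 119 CPM in dividing, 88.4 CPM in S-phase-like and 119 CPM in non-dividing iNKT cells. Its levels were 63.0 CPM in gamma-delta-like, 56.9 CPM in mature-like, 48.0 CPM in post-selection-like, 26.0 CPM in dividing-like, 21.0 CPM in S-phase-like, 29.9 CPM in pre-TCR-like and 24.6 CPM in double-positive-like cells. The 3 iNKT classes had the highest levels, followed by the gamma-delta-like, mature-like and post-selection-like classes, whose intervals overlapped. The 4 remaining classes had the lowest levels, and their intervals overlapped as well.

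**Figure D3:**
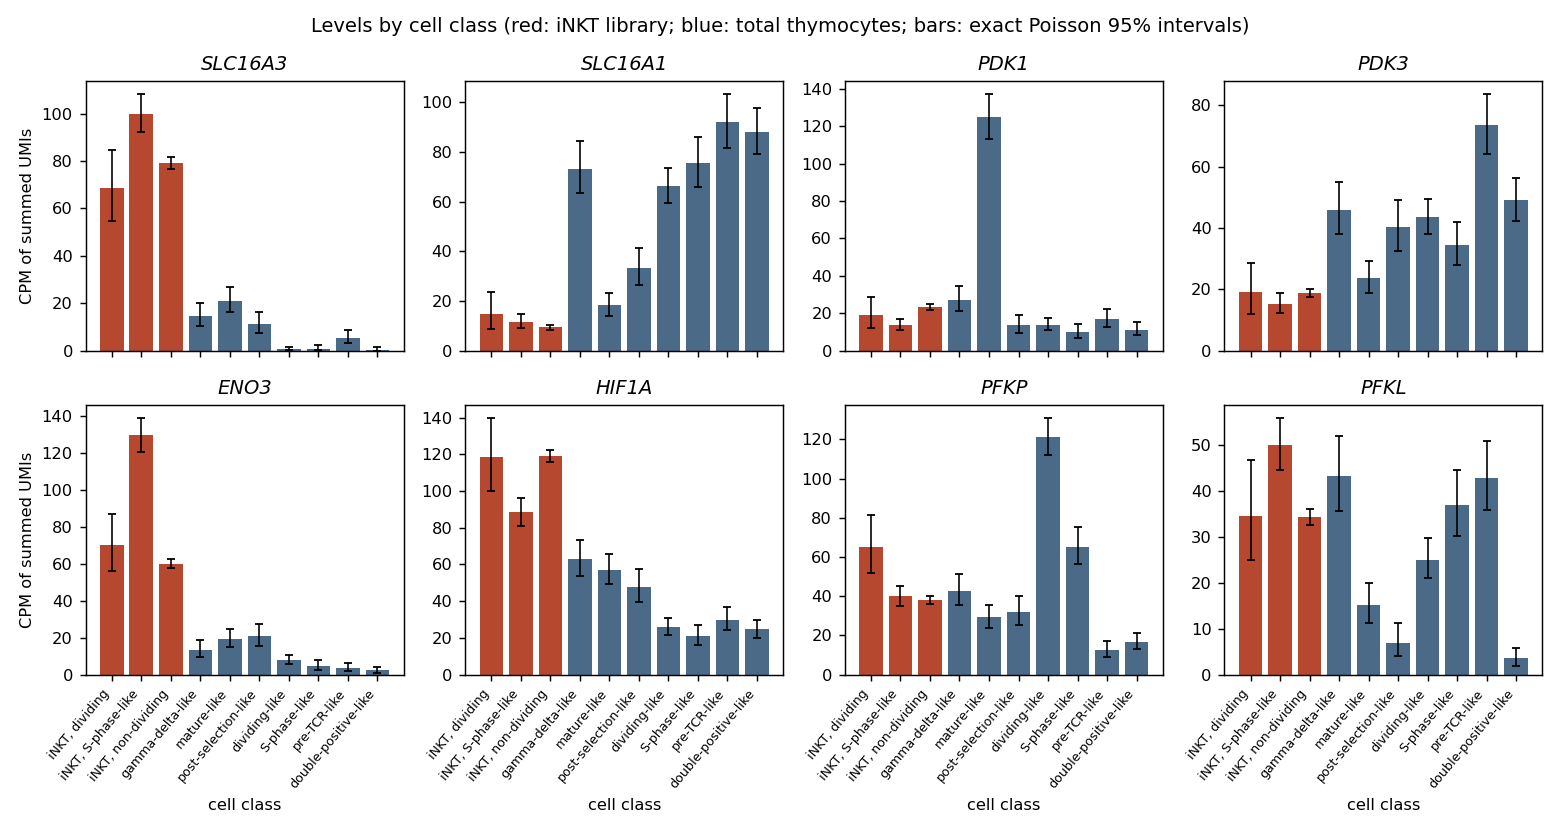
Levels of 8 members (y axes, CPM of summed UMIs) in the 10 cell classes (x axes), red for the iNKT library and blue for total thymocytes, with exact Poisson 95% intervals. SLC16A3, ENO3 and HIF1A are highest in the red bars, SLC16A1 is lowest there, PDK1 peaks in mature-like cells at 124.8 CPM and PFKP in dividing-like cells at 121 CPM.

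Non-dividing iNKT cells were set against mature-like thymocytes. These were chosen as the conventional cells nearest in stage, a closeness that was not measured. A gene was called when its ratio was at least 2 or at most 0.5 with at least 100 UMIs over both sides. Of 26 members so measured, 7 were called higher and 1 lower, beside 7.81% and 7.07% of all genes. The 7 were SLC16A3, ENO3, PFKL at 34.4 and 15.2 CPM (2.26-fold, 1.71 to 3.05), HIF1A (2.09-fold, 1.81 to 2.43), TPI1 (2.05-fold, 1.90 to 2.22), LDHB from 198 and 5 UMIs (2.93-fold, 1.23 to 9.12) and PFKFB2 from 173 and 5 UMIs (2.56-fold, 1.08 to 7.98). PDK1 was the 1 called lower. The other 18 had ratios from 0.515 to 1.76, LDHA with 1.76 (1.63 to 1.91) highest, or 2.09 with TMM factors, and SLC16A1 lowest. The other 5 members were under the minimum. The median log2 ratio was 0.40 over these members and −0.15 over all genes. Factors of the trimmed mean of M values (TMM) moved the log2 ratios of all genes by 0.25 here. At matched depth PFKL was 4.29-fold higher and LDHB 1.58-fold higher.

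Of lists of related genes, the hypoxia response outside glycolysis had 4 of 20 measured members higher and 0 lower, beside 7.81% and 7.07% of all genes. The median log2 ratio of this list was −0.003, and that of all genes −0.15. EGLN3, an oxygen-sensing hydroxylase that is itself induced by HIF1A, was 5.94-fold higher (3.21 to 12.4), and ADM, adrenomedullin, had 115 UMIs in iNKT cells and 0 in mature-like cells, at least 2.84-fold higher against a floor of 3 UMIs over the class. Beside the same shares of all genes, the tricarboxylic acid cycle and its shuttles had 0 of 23 members called in either direction. The pentose phosphate list had 0 of 9 higher and 1 lower, H6PD, at 0.363 (0.281 to 0.474).

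Non-dividing iNKT cells were set against gamma-delta-like cells, another unconventional lineage. Of 26 members, 5 were called higher and 2 lower, beside 10.4% and 12.2% of all genes, and the median log2 ratio was −0.01 for the members and −0.22 for all genes (TMM shift 0.34). SLC16A3 and ENO3 were higher, as were LDHB from 198 and 3 UMIs (3.83-fold, 1.29 to 18.7), PFKFB2 from 173 and 2 UMIs (5.02-fold, 1.37 to 41.8) and PFKM from 111 and 2 UMIs (3.22-fold, 0.871 to 26.9), whose interval includes 1. SLC16A1 and PDK3 were lower, PDK3 at 18.8 and 45.9 CPM (2.44-fold, 2.0 to 2.96), or a ratio of 0.518 with TMM factors and 0.568 with at most 5% mitochondrial UMIs. The enzymes of the lower pathway differed little, with GAPDH, TPI1, ENO1, PGAM1, PGK1 and LDHA all within 2-fold. Of the related lists, the hypoxia response had 5 of 20 genes higher and 1 lower, beside the same shares of all genes. EPAS1, which encodes HIF2A, had 881 UMIs in iNKT cells and 0 in gamma-delta-like cells, at least 17.1-fold higher. BNIP3L was lower, at a ratio of 0.439 (0.392 to 0.493). A list of MYC and mTORC1 supply genes had 1 of 15 higher and 5 lower. MYC was 2.92-fold higher (2.31 to 3.75), while the transferrin receptor gene TFRC had a ratio of 0.216 and the polyamine enzyme ODC1 0.300. H6PD, of the pentose phosphate list, had a ratio of 0.142 (0.117 to 0.174).

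Dividing-like thymocytes were set against double-positive-like thymocytes, most of which are small and do not divide. Of 18 measured members, 6 were called higher and 1 lower, beside 12% and 20.6% of all genes. PFKP was 7.21-fold higher (5.60 to 9.42), PFKL 7.13-fold higher (4.10 to 13.4), TPI1 3.16-fold (2.81 to 3.55), DLAT 2.39-fold (1.79 to 3.21), GAPDH 2.22-fold (2.15 to 2.28) and GPI 2.14-fold (1.78 to 2.58). HK3 was 2.37-fold lower (1.79 to 3.15). ENO1 had a ratio of 1.79 and LDHA 1.90 (1.74 to 2.08), or 2.30 and 2.43 with TMM factors. The other 13 members were under the minimum. The median log2 ratio was 0.71 over the members and −0.29 over all genes (TMM shift 0.36). Only 980 of 2685 double-positive-like cells reached 1500 UMIs, and at that depth PFKL was 2.49-fold, GPI 1.75-fold and DLAT 1.95-fold higher. With at most 5% mitochondrial UMIs GAPDH was 1.93-fold, GPI 1.51-fold and DLAT 1.55-fold higher. HK3 had a ratio of 0.541 with TMM factors.

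Of the related lists in this comparison, 5 of 9 pentose phosphate genes were higher and 0 lower, beside 12% and 20.6% of all genes. Among the higher ones were RPIA (4.35-fold, 3.15 to 6.13) and TKT (3.50-fold, 2.84 to 4.35), which make and use ribose 5-phosphate. MYC was 9.48-fold higher (5.94 to 16.0). TXNIP, an inhibitor of glucose uptake whose transcript responds to glucose, stood at 72.9 CPM in dividing-like cells and 829 CPM in double-positive-like cells, a ratio of 0.0879 (0.0790 to 0.0977). The hypoxia list had 0 of 13 higher and 5 lower, beside the same shares of all genes, with NDRG1 at 0.177 and DDIT4 at 0.245. SLC16A7, another monocarboxylate transporter, had 125 UMIs in dividing-like cells and 1 in double-positive-like cells, a ratio of 93.1 (16.4 to 3706).

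**Figure D4:**
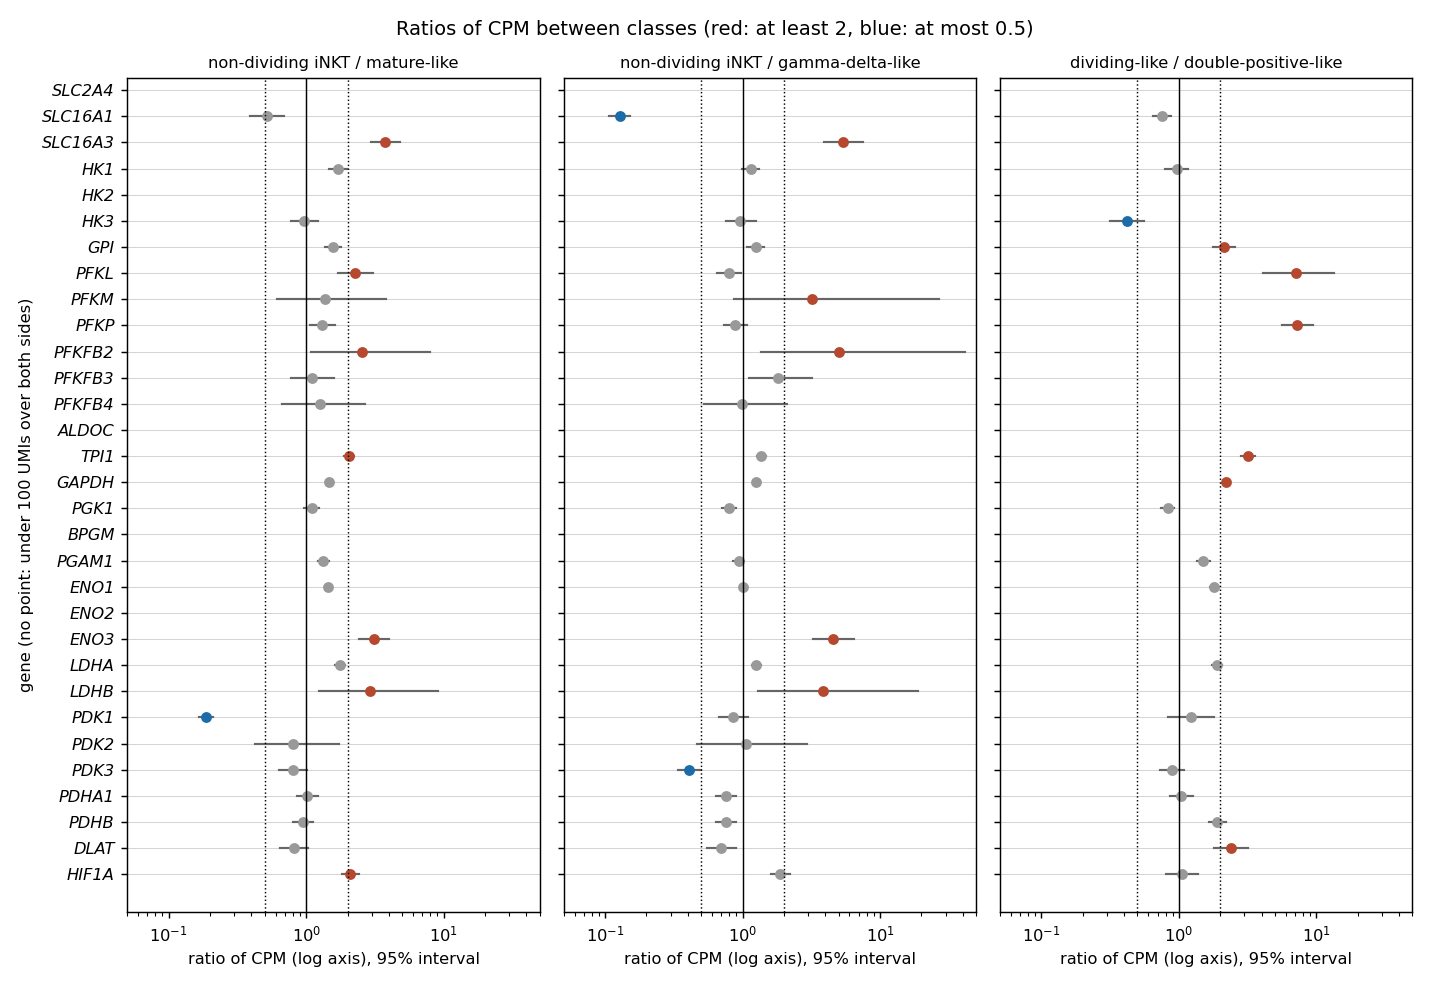
Ratio of CPM (log x axis) with its 95% interval for each member (rows) in 3 comparisons, with dotted lines at 2 and 0.5 and no point for members under 100 UMIs over both sides. SLC16A3 lies at 3.74 and 5.35 in the 2 iNKT panels, PDK1 at 0.187 against mature-like cells, and PFKP and PFKL at 7.21 and 7.13 in dividing-like over double-positive-like cells.

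Mature-like thymocytes were set against double-positive-like thymocytes within the same library. Of 17 members, 3 were called higher (PDK1, HIF1A and TPI1) and 2 lower (SLC16A1 and PDK3), beside 8.58% and 10.8% of all genes. HIF1A was 2.31-fold higher (1.80 to 2.98) and TPI1 2.25-fold higher (1.98 to 2.57), while SLC16A1 was 4.85-fold lower (3.69 to 6.47). At matched depth HIF1A was 1.88-fold and TPI1 1.93-fold higher, and with at most 5% mitochondrial UMIs HIF1A was 1.46-fold higher. LDHA differed little between these classes, with a ratio of 1.14 (1.02 to 1.27), and the median log2 ratio was 0.19 over the members and −0.19 over all genes (TMM shift 0.15). SLC16A3, with 71 UMIs in mature-like and 1 in double-positive-like cells, was one of 14 members under the minimum. PDK3 had a ratio of 0.534 with TMM factors. In post-selection-like cells, set against double-positive-like cells, 1 of 16 members was called higher and 1 lower, beside 4.98% and 7.4% of all genes: TPI1 at a ratio of 2.74 (2.40 to 3.13) and SLC16A1 at 0.377 (0.292 to 0.481). In pre-TCR-like cells, set against the same cells, 1 of 17 was called higher and 0 lower, beside 5.47% and 5.70% of all genes, namely PFKL at 12.2 (7.03 to 22.9), or 6.83 at matched depth.

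Gamma-delta-like cells were set against mature-like cells, both from total thymocytes. Of 20 members, 2 were called higher and 1 lower, beside 5.15% and 3.95% of all genes. SLC16A1 was 4.03-fold higher (3.01 to 5.47), PFKL 2.85-fold higher (2.03 to 4.04), or 4.39-fold at matched depth, and PDK1 was the 1 called lower. TXNIP was 4.56-fold higher as well (3.98 to 5.24).

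Among iNKT cells, few members were called between dividing and non-dividing cells. Of 26 measured in dividing over non-dividing iNKT cells, 1 was called higher and 2 lower, beside 7.80% and 6.96% of all genes. PDHB was 2.15-fold higher (1.76 to 2.61), or 1.37-fold at matched depth. PFKFB4 and PDK2 were called lower from 2 UMIs and 1 UMI in the 129 dividing cells, with intervals that include 1. LDHA had a ratio of 1.42 (1.30 to 1.54). S-phase-like over non-dividing iNKT cells gave 1 of 27 members called higher and 1 lower, beside 2.18% and 2.58% of all genes: ENO3 at 2.16 (1.99 to 2.33), and PDK2 from 7 UMIs with an interval that includes 1. The ENO3 call was lost under 2 alternatives. With at most 5% mitochondrial UMIs 0 of 24 were higher (1.64% of all genes), and with 15 principal components 0 of 27 (4.10%). GAPDH (1.67), LDHA (1.62), TPI1 and ENO1 had the highest levels of all 10 classes in S-phase-like iNKT cells, but no ratio of 2.

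Dividing iNKT cells were also set against dividing-like thymocytes, although their cell cycle phases were not alike: the 13 G2/M-phase markers with a row summed to 3582 CPM in dividing iNKT cells and 7534 CPM in dividing-like thymocytes. Of 18 members, 3 were called higher and 2 lower, beside 8.94% and 9.64% of all genes. ENO3 was 9.15-fold higher (6.23 to 13.6), HIF1A 4.57-fold higher (3.60 to 5.82) and HK1 2.02-fold higher (1.61 to 2.51), or 1.88-fold with TMM factors. SLC16A1 was 4.47-fold lower (2.79 to 7.63) and PDK3 2.29-fold lower (1.49 to 3.69). SLC16A3 had 83 UMIs in dividing iNKT cells and 3 in dividing-like thymocytes.

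Over whole libraries, iNKT cells against total thymocytes, 6 of 27 members were called higher and 3 lower, beside 11% and 17.5% of all genes (TMM shift 0.31). SLC16A3 was 9.24-fold higher (8.13 to 10.5), ENO3 6.47-fold (5.74 to 7.30) and HIF1A 3.01-fold (2.82 to 3.21), with PFKFB2, LDHB and ENO2 higher at lower counts. SLC16A1 was 6.55-fold lower (5.94 to 7.23), PDK3 2.39-fold lower (2.20 to 2.60) and PDK2 2.34-fold lower (1.82 to 3.0). With TMM factors PDK3 had a ratio of 0.519 and PDK2 0.531, which ends both calls, and 11 members were higher and 1 lower, beside 14.9% and 13.0% of all genes. ENO2, with 104 and 5 UMIs, was 11.2-fold higher (4.63 to 35.1), or 6.53-fold at matched depth.

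The non-dividing iNKT cells fell into 8 clusters, whose summed member level ranged from 4579 CPM to 5983 CPM. The highest was cluster 5, with 1855 cells, led by CCL4, CD69, EGR2 and IRF4 among others, which are genes induced by T cell receptor signalling. Of 26 members with at least 100 UMIs, 14 had their highest level of the 8 clusters there and 5 their lowest, beside 24.1% and 21.7% of all genes. Over the other 7 clusters together, SLC16A1 was at 18.7 and 6.99 CPM (2.67-fold, 2.19 to 3.26), PFKFB3 at 18.3 and 9.26 CPM (1.97-fold, 1.63 to 2.38), PFKP 1.67-fold (1.51 to 1.86), HIF1A 1.56-fold (1.47 to 1.66) and SLC16A3 1.42-fold (1.32 to 1.53). Of the 42 HK2 UMIs of the library, 27 lay in this cluster. PFKFB4, PFKM and PDK2 were lower there, at ratios of 0.409, 0.390 and 0.354. A ratio above 1 was found for 16 of the 26, beside 45.7% of all genes, and clusters 3 and 8 also had 16 of 26 above the rest. Among all genes, 3.18% were at least 2-fold higher in cluster 5 and 3.43% at most 0.5-fold. The cluster had a median of 4454 UMIs per cell.

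**Figure D5:**
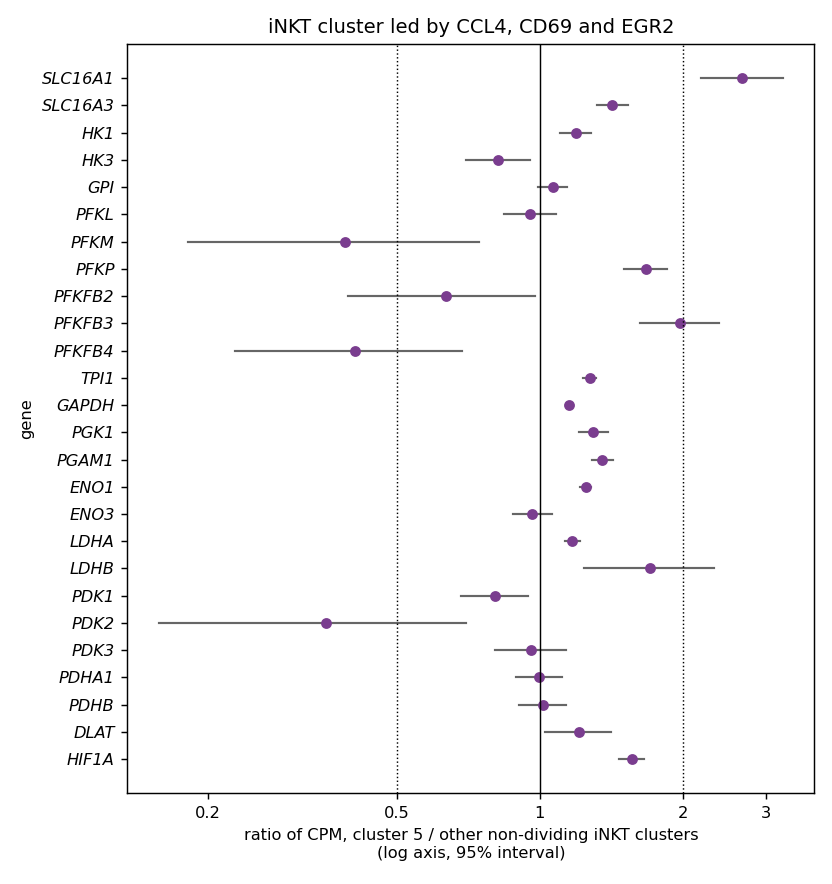
Ratio of CPM (log x axis) with its 95% interval for the 26 members with at least 100 UMIs (rows), cluster 5 over the other 7 clusters of non-dividing iNKT cells. SLC16A1 lies highest at 2.67 and PDK2 lowest at 0.354, while GAPDH and LDHA lie at 1.15 and 1.17.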

How the data were processed

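Libraries were made with version 3.1 of the 10x Genomics 3′ chemistry, per the labels' protocols. What the authors deposited are raw UMI counts, 1 value for each gene in each barcode. The submitters' processing notes list Cell Ranger 3.1 and Seurat 3.1. No build, annotation or handling of reads shared between gene copies was given in the sources used here.

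Cells with at least 500 genes and at most 10% mitochondrial UMIs were kept. Scrublet called 0 of 8026 total thymocytes and 2 of 11273 iNKT cells, so its calling did not work and doublets remain. Each library was clustered on 2000 variable genes, without the members, by Leiden at resolution 1 on 15 neighbours in 30 principal components, using scanpy 1.11.5 with igraph 0.11.9. A cluster took a class name when at least 3 of its markers (each with at least 20 UMIs) and their median exceeded the other clusters' median by at least 2-fold, and its 10 leading genes held a marker of that class and no more of any other. This naming rule was made once clusters were known. The non-dividing iNKT class was not named by it. It held the clusters left after those named dividing, S-phase-like or another cell type, so unnamed clusters fell into it under every setting. With 15 principal components it held 10742 cells.

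UMIs were summed over the cells of a class. Ratios of CPM have exact conditional binomial intervals, CPM exact Poisson intervals and shares Clopper-Pearson intervals, all at 95%. With 1 library of each kind no test across replicates could be run. Median log2 ratios add 0.5 to each count. TMM factors came from edgeR 4.0.16.

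Every member is accounted for. Members past 2-fold with at least 100 UMIs over both sides, the most abundant isoforms and HIF1A are given in full, and of the related lists the most extreme called genes. The members and lists were chosen with earlier results of these data known. The comparisons of gamma-delta-like with mature-like, post-selection-like and pre-TCR-like with double-positive-like, S-phase-like with non-dividing iNKT, and dividing iNKT with dividing-like cells, the account of cluster 5 and of clusters outside the classes, and the split by co-receptor were added after levels had been seen.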

Additional observations from a re-analysis of the deposited data

How the results depend on the processing

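The counts of calls and ratios in this section leave out the comparisons added after levels had been seen. Those moved as well: post-selection-like over double-positive-like cells had 4 of 16 members higher with 15 principal components (6.46% of all genes). With TMM factors, 11 of 27 members were higher and 1 lower between the libraries (14.9% and 13.0% of all genes). Lower were 1 of 26 in non-dividing iNKT over gamma-delta-like cells (7.12% of all genes) and 0 of 18 in dividing-like over double-positive-like cells (10.4%). In mature-like over double-positive-like cells 1 of 17 was lower (8.40%). With a minimum of 20 UMIs, 7 of 21 were higher in mature-like over double-positive-like cells (13.0% of all genes) and 5 of 29 lower in dividing over non-dividing iNKT cells (11.8%). With at most 5% mitochondrial UMIs, 1 of 23 was lower in non-dividing iNKT over gamma-delta-like cells (11.2% of all genes). In dividing-like over double-positive-like cells 2 of 14 were higher and 0 lower (13.5% and 17.8%). In mature-like over double-positive-like cells 0 of 10 were lower (14.7%). In dividing over non-dividing iNKT cells 2 of 23 were higher and 0 lower (7.49% and 10.2%). At 1500 UMIs per cell, 2 of 21 were lower in non-dividing iNKT over mature-like cells (5.72% of all genes). In non-dividing iNKT over gamma-delta-like cells 3 of 21 were higher (10.1%). In dividing-like over double-positive-like cells 0 of 13 were lower (13.7%), and in mature-like over double-positive-like cells 1 of 14 was higher (8.06%). In dividing over non-dividing iNKT cells 0 of 21 were higher and 1 lower (8.66% and 14.7%), where PFKFB4 turned to a ratio of 1.52. Without the highest doublet scores, 0 of 26 were higher and 0 lower in dividing over non-dividing iNKT cells (6.03% and 3.50% of all genes). No cluster met the mature name there, so both comparisons with it gave no value. The S-phase-like iNKT class was also lost there, and the pre-TCR-like class with at most 5% mitochondrial UMIs. The stricter filters measured fewer cells and genes. Other causes were not tested.

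The LDHA share was 100% in double-positive-like cells with at most 5% mitochondrial UMIs and at 1500 UMIs per cell, where it was 100% in gamma-delta-like and 97.2% in dividing iNKT cells. A SLC16A3 UMI was in 27.3% of non-dividing iNKT, 6.13% of gamma-delta-like and 6.5% of mature-like cells without thinning, and in 13.7% of non-dividing iNKT cells at 2000 UMIs. Of 254 ratios of called members under alternatives, 215 stayed within the interval of the main value, 38 moved outside it and 1 reversed. Another 6 had 0 UMIs in the second class and gave no value. Some of the 215 could not move. The lower UMI minimum changes which members are measured and not their ratios, and fewer principal components leave ratios between whole libraries unchanged. The 215 therefore overstate how well the ratios held. Leaving out the barcodes found in both libraries, an alternative added after seeing the data, moved no count of calls by over 1.5 times. No paired analysis was possible because there is 1 library of each kind. Differences between the 2 pigs, between libraries and in bead selection cannot be separated, low members rest on few UMIs, and fewer cells of a type within a class and less RNA per cell cannot be told apart.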

Other observations

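Clusters outside the 10 classes held some high levels of members. The 67 total thymocytes of cluster 11, which met the regulatory T name and carry the activation genes NR4A3, TNFRSF9 and CD40LG among their leading genes, had 228 CPM of PGK1 (175 to 291) and 35.6 CPM of PFKFB3 (17.1 to 65.5), beside the ENO3 level given above. The 215 cells of cluster 4, led by S100A12, S100A8 and KIT among others, had 34.3 CPM of SLC16A3 (26.5 to 43.7) and 25.3 CPM of PDK2 (18.7 to 33.6). The 123 iNKT-library cells of cluster 9, led by JCHAIN, HLA-DRA and GZMH among others, had 103 CPM of PDK1 (76.5 to 135).

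Genes next to the pathway also differed between classes. MYC was 15.4-fold higher in mature-like than in double-positive-like cells (9.63 to 26.0), RPIA, which makes ribose 5-phosphate, was 7.09-fold higher (5.14 to 10.0), and TXNIP stood at 81.0 CPM in mature-like and 829 CPM in double-positive-like cells. In dividing over non-dividing iNKT cells, the transferrin receptor gene TFRC had a ratio of 5.83 and the malate dehydrogenase gene MDH1 3.18, while 5 of 20 hypoxia genes were lower and 0 higher, beside 6.96% and 7.8% of all genes. Such calls rest on few UMIs in the 129 dividing cells, 11 for ANKRD37 and 0 for CA9, whose interval includes 1.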
